A study of Mus musculus with 18 samples.

Results

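Aqp8, Havcr1 and Zg16 are 3 mouse genes, of 55401 measured, that were picked by name because earlier results of these data had shown a high level of each on day 12 of a chemical reprogramming course. Their day 12 (D12) values are therefore given as a description, with no test. The course turned mouse embryonic fibroblasts into induced pluripotent stem cells in culture, and RNA was sequenced every 2 days. Cells labelled reprogramming intermediates formed the groups D2, D4, D6, D8, D10 and D12, named by day. The stem cell groups riPSC (induced pluripotent stem cells, labelled with the same embryo strain as the fibroblasts) and mESC (the R1 embryonic stem cell line, 1 line from a mouse blastocyst) were sequenced beside them. The starting cells were D0, fibroblasts (MEF) of the strain label 129XOG2 E13.5 embryo. Per the labels the OG2 MEFs were of passages 1 to 3 and were put into reprogramming medium a day after seeding, a medium whose contents the labels do not list. The stem cells grew on feeder cells in medium with mLIF, CHIR99021 and PD0325901. Each of the 9 groups held 2 libraries. Nothing in the labels says that these came from separate cultures, and the p-values below cover only the difference within such pairs, which may be technical.

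The 3 genes belong to different families. Aqp8 codes for an aquaporin, a membrane channel that passes water and also hydrogen peroxide and ammonia. It is known from the colon, pancreas, liver and salivary gland. Havcr1 codes for TIM-1, also called KIM-1, a surface receptor of the T-cell immunoglobulin and mucin (TIM) family that binds phosphatidylserine on dying cells. It is a widely used marker of injured kidney tubule cells. Zg16 codes for a small secreted lectin of pancreatic zymogen granules and of goblet cells of the gut, where it is a part of mucus.

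In the GRCm38 (mm10) annotation, Aqp8 (ENSMUSG00000030762) lies on the plus strand at chr7:123462291-123468004, with 3 transcripts. Havcr1 (ENSMUSG00000040405) lies on the plus strand at chr11:46735080-46779578, with 4 transcripts. Zg16 (ENSMUSG00000049350) lies on the minus strand at chr7:127050156-127087328, also with 4 transcripts. A pair of annotated genes on the opposite strand, Gm44939 and Gm22747, lie inside Zg16, and both were listed at 0 in all 18 libraries. Of 100-base windows of the annotated transcripts, 0 of 1579 in Aqp8 and 0 of 1153 in Zg16 also occurred in a transcript of another gene. For Havcr1 it was 16 of 2306 windows, all shared with its family member Timd2. Levels are FPKM, sequenced fragments scaled for transcript length and for library size. A 0 in such a file may be a failed estimate, so such values are called "listed at 0". Of the 16439 genes that passed the filter for testing (at least 1 FPKM in at least 2 libraries), Aqp8 reached 1 FPKM in 10 libraries, whereas Havcr1 and Zg16 did so in the 2 D12 libraries only and so passed through D12 alone.

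The libraries held an estimated 16.6 to 24.6 M read pairs in 17 of the 18 cases. The share of the FPKM sum taken by transcripts of mitochondrial DNA ran from 0.437% to 62.3%. It was 62.3% and 62.1% in the D12 libraries, 52.3% and 51.4% at D10, 50.2% and 52.4% at D8 and 44.2% and 35.4% at D6. It thus moved with the results below, and values rescaled without these transcripts are given beside the D12 differences. The labelled cell types carried their defining markers. The pluripotency gene Nanog was at 274 ± 1.58 FPKM in riPSC and 253 ± 19.1 FPKM in mESC (SD, n = 2 each) and listed at 0 in both D0 libraries, whose fibroblast collagen gene Col1a1 was at 402 ± 141 FPKM. At D12 the pluripotency gene Pou5f1 averaged 543 ± 21.1 FPKM and Nanog 1.76 FPKM.

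The label of a late surge held for Havcr1 and Zg16 and not for Aqp8. Aqp8 reached its high level at D8 and was about as high at D12, whereas Havcr1 and Zg16 were under 1 FPKM in every library before D12.

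**Figure D1:**
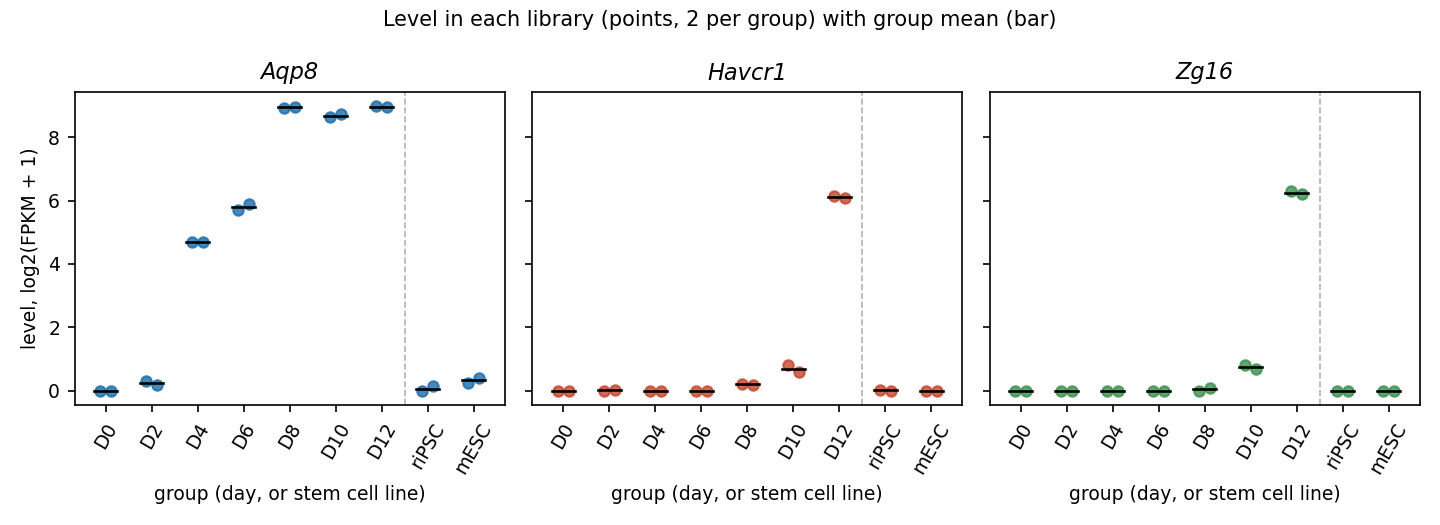
Level of Aqp8, Havcr1 and Zg16 on the log2(FPKM + 1) scale in each library (points, 2 per group) with the group mean (bar). The groups run from D0 to D12 and then, right of the dashed line, riPSC and mESC. Aqp8 climbs in steps to a plateau from D8 on, while Havcr1 and Zg16 stand above 1 FPKM at D12 alone.

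Aqp8 appeared early. It was listed at 0 in both D0 libraries and had 0.245 and 0.130 FPKM at D2. It then had 24.9 and 24.7 FPKM at D4, 50.8 and 58.4 FPKM at D6, and 481 and 497 FPKM at D8. At D10 it had 394 and 423 FPKM, and at D12 503 and 494 FPKM. The riPSC libraries had 0 and 0.0953 FPKM and the mESC libraries 0.172 and 0.332 FPKM, an estimated 2.6 read pairs in riPSC replicate 2 and 4.9 and 9.7 read pairs in mESC. Every library from D4 to D12 thus lay far above every library of D0, D2, riPSC and mESC. In order of mean level, D12 (498 ± 6.62 FPKM) and D8 (489 ± 10.8 FPKM) overlapped, and D10 (409 ± 20.7 FPKM) lay below both. D6 (54.6 ± 5.33 FPKM) and D4 (24.8 ± 0.128 FPKM, SD, n = 2 each) followed without overlap. Of the low groups, mESC and D2 overlapped.

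Aqp8 rose in 3 steps in a row. Fold changes here are on the log2(FPKM + 1) scale, from limma fitted over all genes and libraries, and "called" means a Benjamini-Hochberg adjusted p under 0.05 and a fold of at least 2. At D4 against D2 the log2 fold change was 4.44 ± 0.11 (SE, limma adjusted p = 8.39e-11), where 5.66% of the genes tested were called higher and 4.48% lower. The ratio of means was 132. At D6 against D4 it was 1.10 ± 0.11 (limma adjusted p = 4.76e-06), where 11.6% were called higher and 6.86% lower. That step was close to the fold threshold, and with a pseudocount of 5 in place of 1 it was 1.00 and no longer called. At D8 against D6 it was 3.14 ± 0.11 (limma adjusted p = 1.88e-10), a step in which 15.1% of the genes tested were called higher and 11.3% lower. In such bulk libraries fewer cells of a type and less RNA per cell cannot be told apart. The later differences were small. D10 against D8 gave -0.26 ± 0.11 (limma adjusted p = 0.169), where 0.426% of the genes were called higher and 2.43% lower, and D12 against D10 differed by 0.29, a ratio of means of 1.22, given without a test. With transcripts of mitochondrial DNA left out and the libraries rescaled, that difference was 0.016, on a scale on which the median of all genes was -0.24 in place of -0.06.

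At its plateau Aqp8 was among the most abundant RNAs of the cells. By group mean it ranked 119 at D8, 128 at D10 and 111 at D12 among the 16439 genes tested, against 2865 at D4. riPSC and mESC did not differ in a called way (log2 fold change -0.26 ± 0.11, limma adjusted p = 0.157, where 1.84% of genes were called higher and 1.20% lower). No fold is given for D2 or riPSC against D0, since both D0 libraries were listed at 0.

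The promoter of Aqp8 is shown because its RNA changed over 3 consecutive steps. RefSeq (GRCm38.p6) gives 1 start site, and the 250 bases before it, chr7:123462044-123462293 on the plus strand, are printed with the match to a CDX motif in capitals.
Aqp8: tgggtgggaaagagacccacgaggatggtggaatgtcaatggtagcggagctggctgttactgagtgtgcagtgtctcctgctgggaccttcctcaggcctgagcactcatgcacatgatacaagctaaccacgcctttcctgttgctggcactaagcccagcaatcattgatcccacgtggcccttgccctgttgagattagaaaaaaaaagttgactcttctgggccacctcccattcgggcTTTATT
That match, TTTATT, begins 6 bases before the start site. Both strands of the window from 250 bases before to 50 bases after the start were searched for GATA (GATAA), FOXA (TGTTTAC or TGTTTGC), CDX (TTTATG or TTTATT or TTTACT), HNF4 (AAGTCCA or AAGGTCA), the nuclear receptor site AGGTCA (which lies inside the second HNF4 motif), SOX (ACAATG or ACAATA), KLF (CACCC), AP-1 (TGAGTCA) and the TATA box (TATAAA). Aqp8 held a CDX and a KLF match and none of the others. A CDX match occurred in 34.4% of the 32851 RefSeq promoter windows of this length and a KLF match in 57.5%, so neither is rare, and a match is a string of letters rather than a shown site.

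The genes whose course was most like that of Aqp8 were endoderm genes in part. Likeness was Pearson's r over the 9 group means of log2(FPKM + 1), among 9290 genes with a highest group mean of at least 10 FPKM, and it is a description. The points share libraries and scaling. The 5 highest were S100g (0.99), a calcium-binding protein gene of absorptive epithelia, Sox17 (0.99), a transcription factor of endoderm, Erp44 (0.98), a chaperone of the early secretory pathway, Chmp2b (0.98), a subunit of the ESCRT membrane-sorting machinery, and Ihh (0.98), a hedgehog ligand made by visceral endoderm. S100g had 175 ± 14.4 FPKM at D4, 3763 ± 86.1 FPKM at D8 and 1191 ± 14.0 FPKM at D12. Ihh had 8.19 ± 1.08, 101 ± 3.80 and 24.1 ± 0.300 FPKM on the same days (SD, n = 2 each). Both fell at D12 against D10, by 1.61 ± 0.09 for S100g and by 1.05 ± 0.10 for Ihh on the log2 scale (limma adjusted p = 6.73e-08 and 5.7e-06), where Aqp8 differed by 0.29. Of these 5 genes, 3 were also among the 5 highest over the 18 libraries, and 0 by Spearman's rho over the group means.

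**Figure D2:**
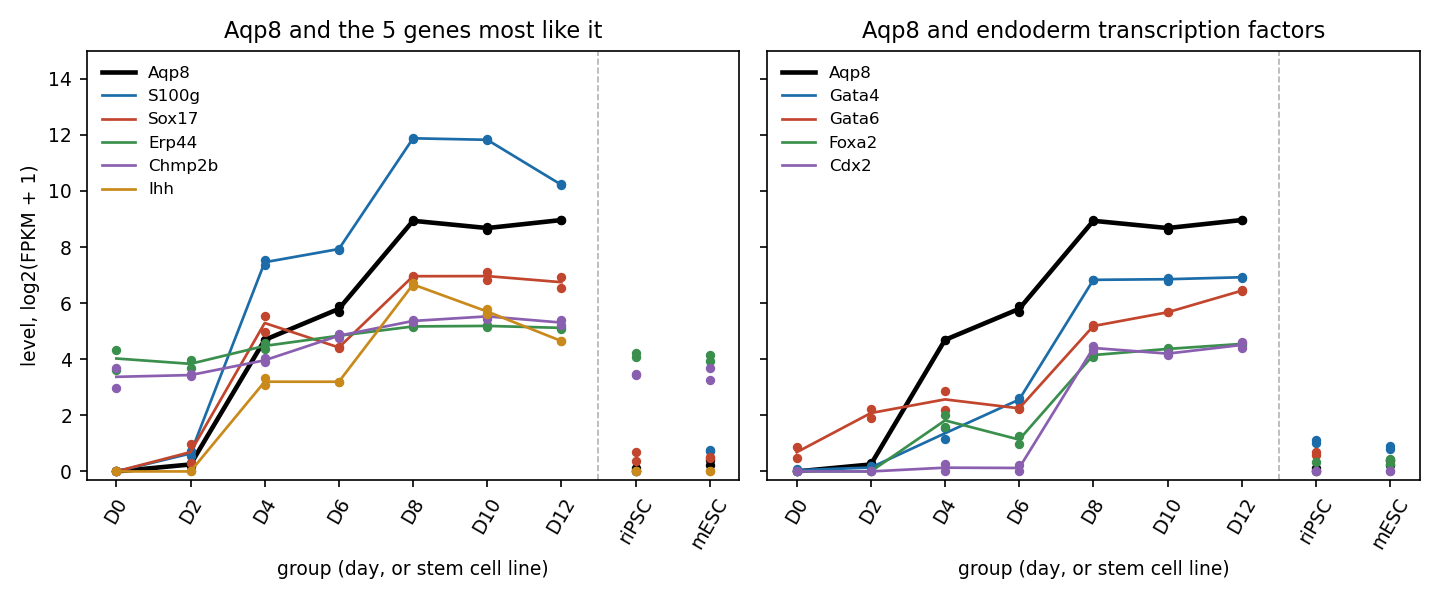
Left, Aqp8 (thick line) and the 5 genes with the highest r to it. Right, Aqp8 and 4 endoderm transcription factors. Points are libraries and lines join the group means from D0 to D12, on the log2(FPKM + 1) scale, with riPSC and mESC right of the dashed line. S100g and Sox17 stand up at D4 with Aqp8, and Cdx2 is near 0 until D8.

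Transcription factors of endoderm and gut changed beside Aqp8. Of 20 listed, 16 were tested. At D4 against D2, 5.66% of all genes tested were called higher and 4.48% lower. Of the listed factors 6 rose and 0 fell, among them Sox17 (log2 fold change 4.61 ± 0.23), Elf3, Sox7, Foxa2 and Gata4. At D8 against D6, where 15.1% of all genes tested were called higher and 11.3% lower, 13 listed factors rose and 0 fell. They include Gata4, which had 113 ± 0.753 FPKM at D8 and 4.91 ± 0.347 FPKM at D6 (4.27 ± 0.12), and Cdx2, a factor of gut and trophoblast, which had 20.1 ± 1.12 FPKM at D8 and 0 and 0.179 FPKM at D6 (4.28 ± 0.12, limma adjusted p = 5.58e-11 and 4.12e-11). At D12 against D10, 0 rose and 1 fell, where 6.01% of the genes tested were called higher and 4.68% lower. Genes of visceral endoderm and liver secretion, without Aqp8, had 8 called higher and 0 lower of 14 tested at D8 against D6, and 1 higher and 4 lower at D12 against D10. The rise at D8 was not limited to endoderm lists. Trophoblast genes, Cdx2 among them, had 5 higher and 1 lower of 9 tested at D8 against D6, with a median log2 fold change of 1.93. Kidney proximal tubule genes had 5 higher and 0 lower of 8 tested at D8 against D6. Those called include Cubn and Hnf4a, which are also in the endoderm lists, and Lrp2, which visceral endoderm also makes. At D12 against D10 the kidney list had 1 each way, or 4 in all with transcripts of mitochondrial DNA left out. Without D12 replicate 1, 2 of the listed factors were called at D12 against D10 in place of 1. Over the listed factors tested, the median log2 fold change was 0.21 at D4, 2.38 at D8 and 0.07 at D12 against the group before, beside 0.04, 0.08 and -0.06 over all genes tested. In riPSC and mESC, Gata4 and Cdx2 were at or under 1.08 FPKM, as Aqp8 was. Elf3 was at 60.4 FPKM in riPSC and 50.7 FPKM in mESC and was not the only exception. Of the 20 listed factors, 5 in riPSC and 6 in mESC had at least 1 FPKM in both libraries. The list summed to 216 to 238 FPKM in riPSC and 251 to 276 FPKM in mESC. Klf4 and Klf5 were among the 13 called higher at D8 (1.94 ± 0.15 and 2.03 ± 0.16).

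The other aquaporins differed among themselves. Of 11 others, 5 were tested, and the other 6 had group means of at most 0.622 FPKM. Aqp5, a water channel of glands and lung, had 13.4 ± 1.80 FPKM at D8 and 148 ± 1.77 FPKM at D6, a step in which Aqp8 rose. It fell at D8 against D6 by 3.38 ± 0.13 (limma adjusted p = 7.2e-10) and at D12 against D10 by 1.57 ± 0.13 (adjusted p = 2.03e-06), to 0.126 and 0.205 FPKM at D12. Aqp1, the channel of red cells and proximal tubule, had 58.4 ± 1.88 FPKM at D8, 8.71 ± 0.624 FPKM at D10 and 4.06 ± 0.0875 FPKM at D12, and its D12 against D10 value (-0.94) was not called. Of the 5 tested, 1 was called at D12 against D10, where 6.01% of all genes tested were called higher and 4.68% lower. With transcripts of mitochondrial DNA left out, 3 were called. More than 1 was also called without D10 replicate 1 or without D12 replicate 2. Aqp11 rose in both steps in which Aqp8 rose most on the log2 scale, by 1.73 ± 0.12 at D4 against D2 (limma adjusted p = 9.83e-07) and by 1.66 ± 0.12 at D8 against D6. It had 4.93 ± 0.117 FPKM at D4 and 0.789 ± 0.169 FPKM at D2. Aqp3 rose at D8 against D6, by 1.88 ± 0.26. Aqp3, which also passes glycerol, led in the stem cells, with 40.1 ± 2.96 FPKM in riPSC and 16.7 ± 0.0566 FPKM in mESC. By mean level, Aqp5 was the leading aquaporin at D2 (179 ± 33.2 FPKM), D4 (87.7 ± 4.85 FPKM) and D6, Aqp8 from D8 to D12 and Aqp3 in the stem cells. FPKM is a level per length.

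**Figure D3:**
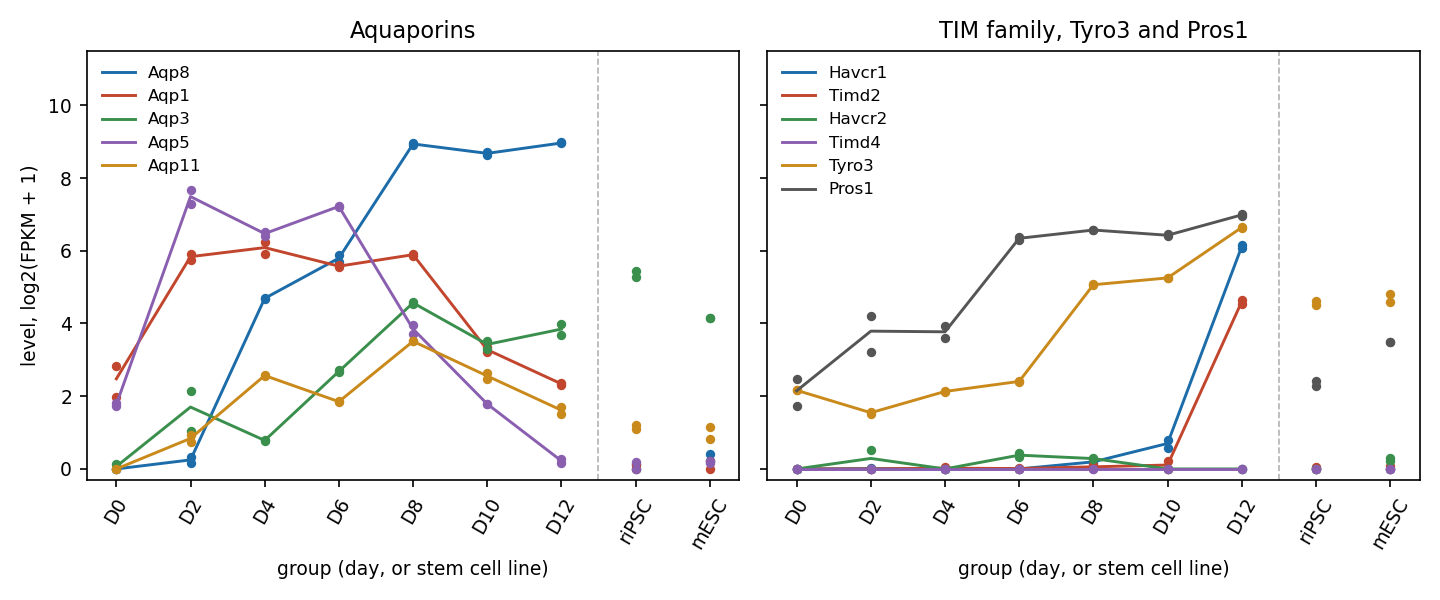
Left, the 5 aquaporins of highest level. Right, members of the TIM family with Tyro3 and Pros1. Points are libraries and lines join the group means from D0 to D12, on the log2(FPKM + 1) scale, with riPSC and mESC right of the dashed line. Aqp5 goes down at D8 as Aqp8 goes up, and Timd2 appears at D12 with Havcr1, while Havcr2 and Timd4 stay near 0.

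Havcr1 was seen at D12 and hardly elsewhere. It had 70.4 and 66.1 FPKM at D12, an estimated 2389 and 2307 read pairs, 0.750 and 0.499 FPKM at D10 (27.1 and 16.8 read pairs) and 0.164 and 0.125 FPKM at D8 (6.4 and 5.3 read pairs). It was listed at 0 in both libraries of D0, D4, D6 and mESC, and had 0 and 0.0129 FPKM at D2 and 0.0234 and 0 FPKM in riPSC. D8, D10 and D12 thus stood in that order without overlap, and riPSC and D2 overlapped. The mean at D10 was 0.915% of the mean at D12. D12 against D10 differed by 5.42 on the log2(FPKM + 1) scale, a ratio of means of 109, given without a test, and by 5.17 with transcripts of mitochondrial DNA left out. D10 against D8, which the choice of the gene did not use, differed by 0.50, under the 2-fold threshold. Its ratio of means was 4.33, which the pseudocount of 1 shrinks, and with a pseudocount of 0.1 the difference was 1.55. The SE of the fit draws on all groups, and pairs listed at 0 in both libraries add no spread to it. It therefore does not measure the spread at D8 and D10, where few read pairs were seen, and no p is given. Among the genes tested, Havcr1 ranked 908 at D12 by mean level.

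Zg16 was listed at 0 in 13 of the 18 libraries. It had 77.7 and 72.6 FPKM at D12, an estimated 939 and 902 read pairs, and 0.748 and 0.609 FPKM at D10 (9.6 and 7.3 read pairs). At D8 it had 0 and 0.0619 FPKM (0.9 read pairs), and the zeros took in every library of D0, D2, D4, D6, riPSC and mESC. D12, D10 and D8 did not overlap. The mean at D10 was 0.903% of that at D12, close to the share in Havcr1. D12 against D10 differed by 5.50 on the log2 scale, a ratio of means of 111, given without a test, and by 5.26 with transcripts of mitochondrial DNA left out. D10 against D8 differed by 0.70, under the 2-fold threshold, and by 2.61 with a pseudocount of 0.1. The SE of the fit draws on all 9 groups, and pairs listed at 0 in both libraries add no spread to it. It therefore does not measure the spread at D8 and D10, where few read pairs were seen, and no p is given. No fold is given for D12 against riPSC, where Zg16 was listed at 0. It ranked 793 at D12. Over the 9 group means the r between Havcr1 and Zg16 was 1.00, which rests on the D12 group, while Aqp8 gave 0.50 with each of them.

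Havcr1 was not alone at its place on chromosome 11. The neighbouring genes toward Havcr2 were high at D12 too. BC053393 had 79.9 and 72.4 FPKM at D12, 1.70 and 2.17 FPKM at D10 and 0.409 and 0.388 FPKM at D8. It was higher by 1.06 on the log2 scale at D10 against D8, close to the 2-fold threshold, and by 4.72 at D12 against D10. No test is given for BC053393. Its libraries of D0, D2, D4, D6 and mESC were all listed at 0 and add no spread to the SE. Dppa1, a gene first described as associated with pluripotency, had 75.0 and 63.0 FPKM at D12 and 0.338 and 0.0914 FPKM at D10. Timd2, a TIM family receptor reported to bind ferritin in the mouse, had 24.1 and 22.3 FPKM at D12 and 0 and 0.154 FPKM at D10. These are the 3 nearest protein-coding genes on that side. Dppa1 and Timd2 passed the filter through D12 alone, so their log2 differences at D12 against D10, 5.85 and 4.49, are given without a test. On the other side, Timd4 was listed at 0 in all 18 libraries, Sgcd had 0.22 FPKM at D12, and Rack1 was abundant in every group and was not called.

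The stretch was then followed gene by gene, a step chosen after these values had been seen. Of the 12 annotated genes from Havcr2 to Timd4 other than Havcr1, 7 had at least 1 FPKM at D12 and over 10 times the mean of each other group. Of these 12, 7 passed the filter for testing, and 6 of those 7 met this rule, as did 105 of all genes tested, or 0.639%. A gene that meets the rule mostly passed the filter through D12, so nothing is read from the 2 shares. The lincRNA Gm4926 had 39.8 and 41.0 FPKM at D12 and 0 and 0.0534 FPKM at D10. Gm12173, annotated as an unprocessed pseudogene, had 58.6 and 50.3 FPKM at D12 and 0.135 and 0 FPKM at D10. Gm12169 was lower, with 6.95 and 7.81 FPKM at D12, and the lincRNA Gm12171 had 1.06 and 0.940 FPKM. No 100-base window of BC053393, Dppa1, Gm4926, Gm12173 or Gm12169 occurred in a transcript of another gene. The 8 genes, Havcr1 included, span 255.4 kb, chr11:46524212-46779578. The stretch ended within 43.0 kb of Havcr2 and 31.2 kb of Timd4, and both were listed at 0 at D12. Inside it, the processed pseudogene Gm12174, 6.4 kb from the annotated start of Havcr1, had 6.12 and 7.49 FPKM at D12 and 8.88 and 8.76 FPKM at D10, so it did not share the pattern. Outside D12 the highest group mean of any of the 8 was 1.93 FPKM, that of BC053393 at D10.

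**Figure D4:**
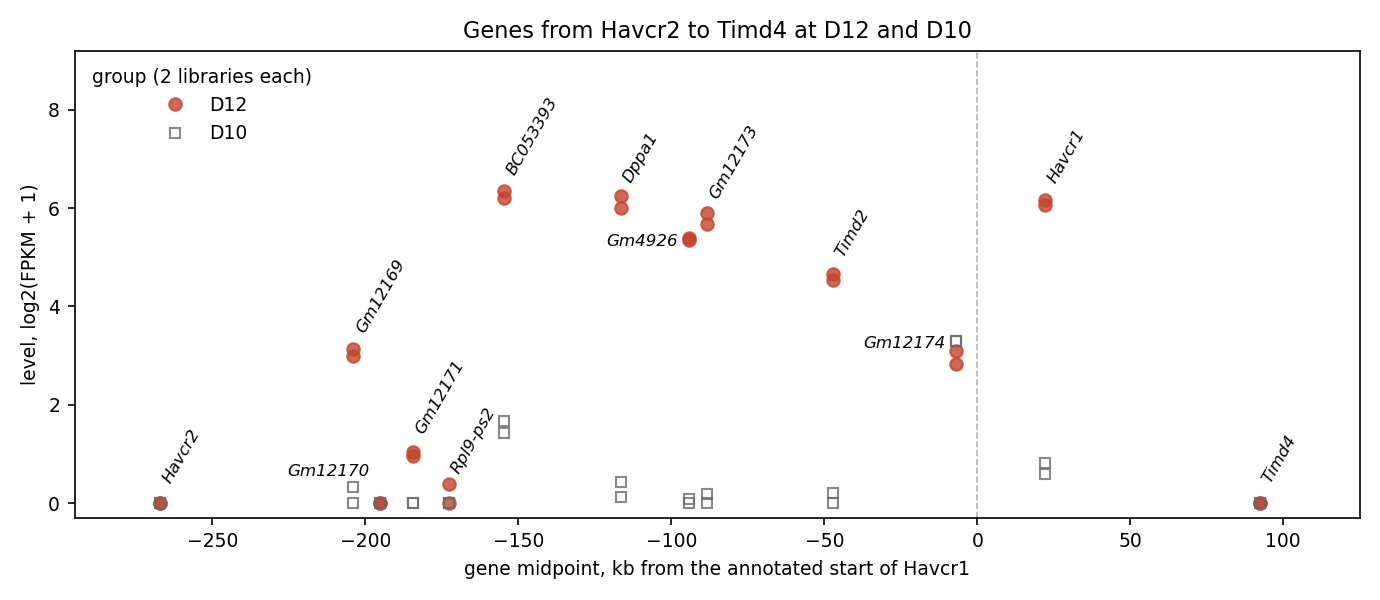
Level on the log2(FPKM + 1) scale of the 13 annotated genes from Havcr2 to Timd4, at D12 (filled circles) and D10 (open squares), 2 libraries each, by distance of the gene's midpoint from the annotated start of Havcr1 in kb. From Gm12169 to Havcr1 the D12 values stand above the D10 values except at Gm12170, Rpl9-ps2 and Gm12174, and both ends are at 0.

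Some start sites of the stretch carry related sequence. The 250 bases before the first of the 3 RefSeq start sites of Havcr1 (chr11:46739973-46740222, plus strand) and before the start of Dppa1 (chr11:46629275-46629524, minus strand, GRCm38.p6) are printed because the 2 genes appeared together and share letters. Capitals mark the longest run that both hold.
Havcr1: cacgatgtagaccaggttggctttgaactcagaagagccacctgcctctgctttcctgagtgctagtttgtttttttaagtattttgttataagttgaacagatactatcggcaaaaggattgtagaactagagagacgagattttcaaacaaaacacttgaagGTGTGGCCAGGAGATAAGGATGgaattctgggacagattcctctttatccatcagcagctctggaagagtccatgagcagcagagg
Dppa1: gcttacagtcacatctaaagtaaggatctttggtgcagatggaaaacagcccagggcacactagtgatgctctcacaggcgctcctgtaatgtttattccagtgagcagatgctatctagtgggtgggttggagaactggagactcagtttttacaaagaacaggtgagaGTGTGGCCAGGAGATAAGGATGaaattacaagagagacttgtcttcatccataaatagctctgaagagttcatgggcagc
The run GTGTGGCCAGGAGATAAGGATG, 22 bases with a GATA match inside, begins 86 bases before the start in Havcr1 and 80 bases before it in Dppa1. It occurred in 2 of the 32851 promoter windows, these. A local alignment of the 2 windows matched 146 of 198 columns, or 73.7%, and one of BC053393 with Dppa1 matched 126 of 173 columns, or 72.8%. The window of Aqp8 aligned with theirs and with that of Timd2 over at most 64 columns. Some pairs within the stretch were as short: Dppa1 with the windows of Timd2 gave 62 and 36 columns. BC053393 with the windows of Timd2 gave 146 and 26 columns. Windows of other genes were not aligned, so these lengths have no background. The comparison was made after the values had been seen. GATA matches occurred in 25.4% of all windows, and at the first start Havcr1 held 2 and no other motif of those searched. Its second start held a CDX match, and the third a FOXA match and AGGTCA. An HNF1 motif (GTTAAT) was not part of the search, and its letters also occur before the second start. FPKM per gene does not tell which start was used.

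The neighbours of Aqp8 and Zg16 did not behave this way. Of the 3 nearest protein-coding genes on each side of Aqp8, Slc5a11 and Arhgap17 rose at D8 against D6 (1.63 ± 0.14 and 1.13 ± 0.18). Lcmt1, Zkscan2 and Kdm8, the last 1976.7 kb away, were not called. In that step 15.1% of the genes tested were called higher and 11.3% lower. Slc5a11 fell at D10 against D8 (-1.55 ± 0.14), where 0.426% were called higher and 2.43% lower. Hs3st4, 514.9 kb away, was under the filter. Around Zg16, Kif22, a kinesin of mitosis, rose at D8 against D6 (1.36 ± 0.16). None of Maz, Kif22, AI467606 and Qprt was called at D12 against D10, where 6.01% of the genes tested were called higher and 4.68% lower. AI467606, 4.0 kb away, had 1.05 FPKM at D12 and 5.87 FPKM in riPSC, where Zg16 was listed at 0. Prrt2 and Spn were under the filter.

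By course over the groups, the same 5 genes were most like Havcr1 and Zg16. They were Dppa1, Timd2, Gm12173 and Gm4926 of the stretch and BC051665 on chromosome 13, with r of 0.99 or above for each, resting on D12. BC051665 had 26.6 and 27.5 FPKM at D12 and was listed at 0 at D10. In all, 8 genes had a mean of at least 20 FPKM at D12 and under 1 FPKM elsewhere, 5 of them between Havcr2 and Timd4. The others were Zg16, BC051665 and the 68-base Mir24-1 gene, which had 473 FPKM in D12 replicate 1 and 0 in replicate 2. Ranked by the lowest of their r to Aqp8, Havcr1 and Zg16, the first 5 genes were Il18 (0.83), Satb1 (0.83), Lrpap1 (0.83), Gpat3 (0.82) and Leprot (0.81). Il18, an inflammatory cytokine gene, had 20.3 ± 0.894 FPKM at D12 and 5.51 ± 0.130 FPKM at D10. Lrpap1, a chaperone of endocytic lipoprotein receptors, had 444 ± 16.1 FPKM at D12 and 145 ± 9.98 FPKM at D10.

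Among genes around TIM-1 function, receptors and bridging proteins for phosphatidylserine, 18 were listed beside Havcr1, of which 16 were measured and 12 tested. At D12 against D10, the receptor kinase Tyro3 was called higher and 0 were called lower. Timd2 is not counted, since it passed the filter through D12 alone. Of all genes tested, 6.01% were called higher and 4.68% lower. Tyro3 had 98.7 ± 1.22 FPKM at D12 and 37.1 ± 0.410 FPKM at D10 (1.39 ± 0.09, limma adjusted p = 2.32e-07). Its bridging ligand gene Pros1 had 126 ± 4.38 FPKM at D12 and 85.0 ± 2.70 FPKM at D10, which was not called (limma adjusted p = 0.136). The TIM receptors of macrophages and T cells, Timd4 and Havcr2, were listed at 0 at D10 and D12. The median log2 fold change of the list was -0.01, beside -0.06 over all genes.

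Marker lists of the tissues in which the 3 genes are known were compared at D12 against D10. The shares of all genes tested were 6.01% called higher and 4.68% lower. List genes that passed the filter through D12 alone are not counted as called, since the filter itself asked for a high D12 level. They do enter the medians. Without the 3 genes, the goblet cell and mucus list had Tff3 called higher and 2 lower of 9 tested, with a median log2 fold change of 0. Tff3, a secreted trefoil peptide, had 13.6 and 11.2 FPKM at D12 and 1.27 and 0.663 FPKM at D10 (2.78 ± 0.17, limma adjusted p = 8.77e-08), and the mucin Muc13, which passed the filter through D12 alone, was higher by 1.27. Creb3l1 and Sytl2 fell. Without D12 replicate 1, or without D10 replicate 1, fewer genes of the list, Muc13 included, were called. Of the 13 list genes measured, 6 had at least 1 FPKM in both D12 libraries, while Muc2, Clca1, Atoh1 and Retnlb had group means of at most 0.277 FPKM. The summed level of the 13 list genes was 29.7 to 33.1 FPKM at D12 and 27.4 to 31.0 FPKM at D10. Of the pancreatic zymogen list, colipase (Clps) was called higher and 0 lower of 5 tested, with Sycn not counted. The median was 0.75. Sycn, which codes for syncollin of zymogen granules and passed the filter through D12 alone, had 7.04 and 3.37 FPKM at D12 and 0.0694 and 0 FPKM at D10, and colipase (Clps) rose by 2.29 ± 0.12. The proteases and amylase Prss1, Prss2, Ctrb1 and Amy2b had group means of at most 0.0593 FPKM. The list summed to 17.0 to 18.2 FPKM at D12 and 7.28 to 7.75 FPKM at D10.

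Absorptive enterocyte and brush border genes had Apoa1 and Apoa4 called higher and 3 lower of 9 tested at D12 against D10. Fabp2 is not counted. The median was -0.20, and 6.01% of all genes were called higher and 4.68% lower. Fabp2, a fatty acid carrier of the gut that passed the filter through D12 alone, had 6.99 and 8.27 FPKM at D12 and 0.311 and 0.680 FPKM at D10. The apolipoproteins Apoa1 and Apoa4 rose, by 2.44 ± 0.17 and 2.19 ± 0.11. The membrane enzymes Dpp4, Anpep and Car4 fell, Dpp4 by 2.91 ± 0.14 (limma adjusted p = 1.11e-08), to 2.54 ± 0.110 FPKM at D12 against 25.5 ± 0.151 FPKM at D10. All 3 of these enzymes had risen at D8 against D6 when Aqp8 did, Car4 by 6.49 ± 0.10. Of the 19 list genes measured, 8 had at least 1 FPKM in both D12 libraries, while Fabp1, Alpi, Sis and Lct had group means of at most 0.361 FPKM. The list summed to 105 to 113 FPKM at D12 and 266 to 269 FPKM at D10. Of the injured kidney tubule list, 2 rose (Lcn2, which codes for lipocalin NGAL, and Timp1) and 3 fell (Clu, Sox9 and Cd44) of 11 tested, with a median of -0.06. Lcn2 had 26.2 ± 0.617 FPKM at D12 and 8.97 ± 0.181 FPKM at D10 (1.45 ± 0.13). The list summed to 639 to 657 FPKM at D12 and 1085 to 1094 FPKM at D10.

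**Figure D5:**
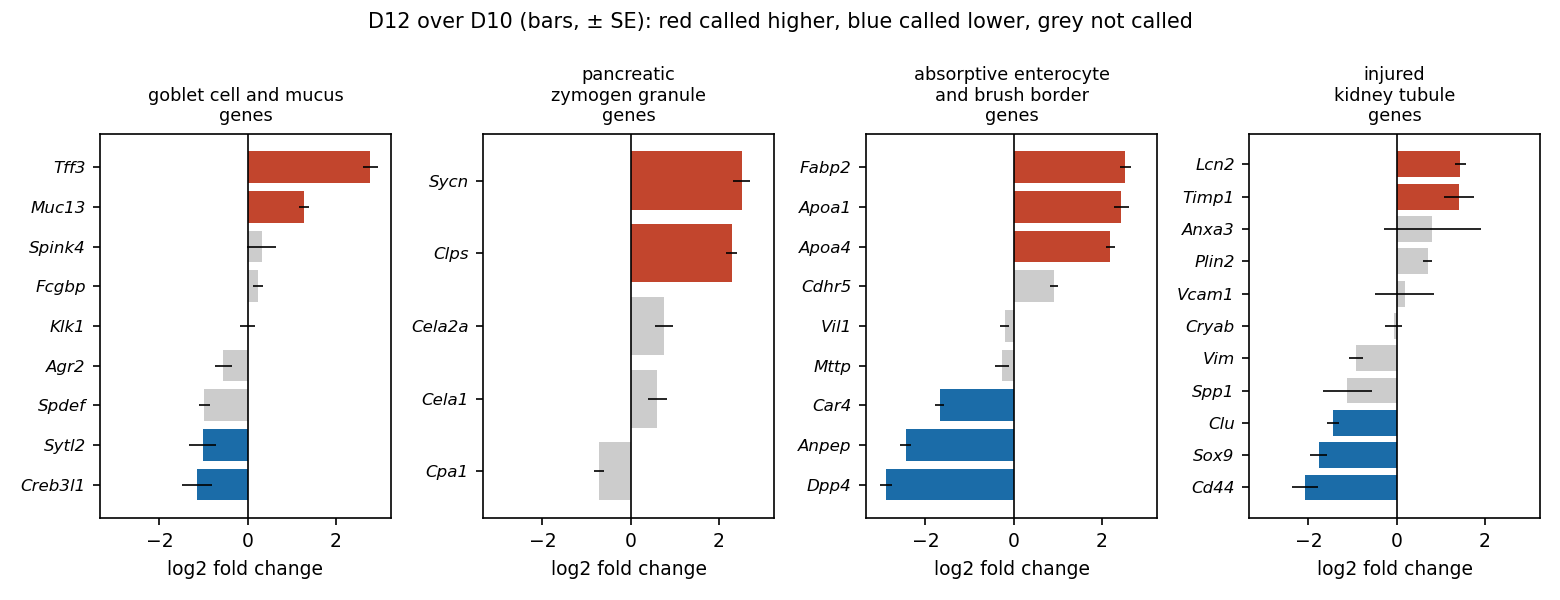
Log2 fold change of D12 over D10 (bars, with SE) of the tested genes of 4 tissue lists, without Aqp8, Havcr1 and Zg16. Red bars were called higher, blue bars lower and grey bars not called. Each of the 4 lists holds red bars, and all but the pancreatic list hold blue ones. Muc13, Sycn and Fabp2, drawn in red, passed the filter through D12 alone and are not counted as called in the text.

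Markers of other cells also moved at D12 against D10, and their part in the values of Havcr1 and Zg16 was not tested. Among 2-cell-like genes, markers of a rare state of embryonic stem cells, the 10 tested passed the filter through D12, with none at 1 FPKM in both libraries of any group from D0 to D10, so their calls are not counted here. Zscan4f had 12.3 and 11.7 FPKM at D12 and 0 and 0.0259 FPKM at D10, and the Zscan4 genes are close copies among which reads may have been split. The 20 measured genes summed to 47.4 to 51.9 FPKM at D12 and 0.133 to 0.175 FPKM at D10. In riPSC, Zscan4f was at 1.59 ± 0.372 FPKM, where Havcr1 and Zg16 were at or near 0. Of all genes tested, 6.01% were called higher at D12 against D10 and 4.68% lower. Of 12 pluripotency genes 6 rose and 1 fell. Of 12 fibroblast genes 4 rose and 1 fell, among them Col3a1 higher and Thy1 lower, with a median of 0.51. Of 9 tested trophoblast genes 3 rose, Gata3 by 2.74 ± 0.11, and 0 fell, with a median of -0.06. Of 8 tested myeloid genes 0 rose and 1 fell, and Ptprc, which defines leukocytes, had group means of at most 0.0823 FPKM. That myeloid call, Cd68, was lost without D12 replicate 2 or D10 replicate 2. The median log2 fold change was 0.87 over the pluripotency genes, beside -0.06 over all genes tested.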

How the data were processed

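RNA-seq of total RNA from 18 libraries was analysed from 1 file of FPKM values per library. The FPKM values were made by the authors before they were deposited: per the submitters' processing notes the tools were fastp 0.20.1, HISAT2 2.2.1 and StringTie 2.0 with build mm10, whose roles and annotation release are not given in the sources used here. The file headers name no unit, and FPKM was read from the values. Such values hold no counts, so no count test was run. Depth was estimated from the value of 1 read pair per gene and failed for D2 replicate 2. Estimated read pairs cover counting error only.

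Log2(FPKM + 1) was fitted with limma 3.58.1 in R 4.3.3, 1 mean per group over all libraries, two-sided, for 16439 genes of at least 1 FPKM in at least 2 libraries. A call needed a Benjamini-Hochberg adjusted p under 0.05 and a 2-fold change, and the script was tested on simulated data. Alternatives were 2 other pseudocounts, 2 other filters, 3 other scalings, a trend, the compared libraries alone, a replicate block and leaving out each library. Gene positions are GENCODE M21 (GRCm38) and promoters RefSeq (GRCm38.p6), which held Aqp8 and Havcr1. Other genes were named by rule: the 3 nearest protein-coding genes on each side, the 5 most alike, and called list genes. The 3 genes and all lists were chosen with earlier results of these data known. Values of 1 listed gene are not reported here.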

Additional observations from a re-analysis of the deposited data

How the results depend on the processing

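With 2 libraries a group and no counts, small differences could not be seen, and levels under about 1 FPKM weigh on the pseudocount. None of the 143 values recomputed for the 3 genes changed sign. Of the steps with a test, Aqp8 at D6 against D4 was 1.00 and under the 2-fold threshold with a pseudocount of 5. With only the compared libraries fitted, the 3 steps of Aqp8 stayed called with much larger p-values. The limma adjusted p was then 0.0443 at D4, 0.0107 at D6 and 0.000588 at D8, each against the group before. With a pseudocount of 0.1, D10 against D8, given without a test, was 1.55 for Havcr1 and 2.61 for Zg16. Aqp8 in riPSC against mESC was then -1.29 and called. The untested D12 differences moved with the scale. Against D10, Aqp8 was 0.40 with median-of-ratios scaling and 0.016 without transcripts of mitochondrial DNA. Havcr1 was 6.58 and 3.70 with pseudocounts of 0.1 and 5, 5.82 with quantile normalization and 5.17 without mitochondrial transcripts, and Zg16 was 6.60, 3.82, 5.96 and 5.26 under the same settings. Against riPSC, whose libraries were near 0, Aqp8 was 11.80, 6.64, 9.28 and 8.66, and Havcr1 9.26, 3.87, 6.29 and 5.87. Without 1 library in turn, Aqp8 gave 4.37 to 4.51 at D4, 1.01 to 1.20 at D6 and 3.04 to 3.24 at D8, each against the group before. The replicate block changed no call of the 3 genes, with an adjusted p of 1.04e-09 for Aqp8 at D8 against D6, and the numbers did not pair the samples: the correlation of replicate differences between groups ran from -0.227 to 0.266 over 36 pairs. Genes called at D12 against D10 numbered 1757, against 2721 and 607 with pseudocounts of 0.1 and 5. At D8 against D6 they were 4348, against 1966 with a pseudocount of 5, and at D4 against D2 1667, against 2701, 620 and, with only those libraries fitted, 337. At D6 against D4 they were 3037, against 1318 with a pseudocount of 5. At D10 against D8 they were 470, and in riPSC against mESC 500, against 822 and 124, and 901 and 127, with pseudocounts of 0.1 and 5. The cause of these shifts was not tested. A few genes of the Aqp8 likeness list changed with its measure: without D12, added after seeing the data, 2 of 5 were the same.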

Other observations

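Some genes of the goblet cell, zymogen and proximal tubule lists rose at D8 against D6, with Aqp8 and before Zg16 and Havcr1 were seen at more than trace level. Of the 9 goblet cell and mucus genes tested, 4 rose and 1 fell, beside 15.1% of all genes called higher and 11.3% lower. With a pseudocount of 5 the list had 0 calls, and with a filter of 5 FPKM 2. Fcgbp, a mucus protein, had 4.47 and 4.28 FPKM at D8 and 0.123 and 0.451 FPKM at D6, and Agr2, a disulfide isomerase needed for mucin folding, had 3.82 and 5.78 FPKM at D8 and 0.254 and 0.231 FPKM at D6. Cpa1, a pancreatic carboxypeptidase, had 7.24 and 7.64 FPKM at D8 and 0.0283 and 0.211 FPKM at D6, and averaged 2.72 FPKM at D12. Of the proximal tubule genes, Lrp2 and Cubn, the endocytic receptors megalin and cubilin, which visceral endoderm also makes, had 11.1 ± 0.687 and 4.99 ± 0.307 FPKM at D8 and 0.194 ± 0.0471 and 0.164 ± 0.0127 FPKM at D6 (SD, n = 2 each). The injured kidney tubule list had 2 higher and 4 lower of 11 tested, with a median log2 fold change of -1.21, beside 0.08 over all genes. Tyro3 rose in that step too, by 2.66 ± 0.09 (limma adjusted p = 2.58e-10), ahead of its rise at D12. Of 12 pluripotency genes 9 rose at D8 against D6, Dppa5a to 172 ± 0.766 FPKM at D8 with 0 and 0.378 FPKM at D6, and of 12 fibroblast genes 10 fell.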
